A study of Mus musculus with 8 samples.

Results

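The genes of the mitochondrial ribosome were compared between leukaemic cells with and without Mx1-Cre on a floxed Dek background. They were chosen by name, as every gene of the deposited count table whose symbol is Mrpl or Mrps followed by a number and at most 1 letter. That gave 78 of 55291 genes, 51 for the large subunit, 26 for the small subunit, and Mrps36, whose product is now placed in the 2-oxoglutarate dehydrogenase complex. Of these, 77 had enough counts to be tested, and Mrpl53 did not.

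The mitochondrial ribosome translates the few mRNAs that the mitochondrial genome itself encodes, all of them for inner-membrane subunits of oxidative phosphorylation. Its 2 rRNAs are transcribed inside the organelle, whereas its proteins are encoded in the nucleus, made in the cytosol and imported, so a working ribosome needs output from both genomes. Many of its proteins descend from bacterial ribosomal proteins and the others are specific to mitochondria. Acute myeloid leukaemia cells are known to depend on mitochondrial translation, and drugs that block it reduce their growth.

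RNA was sequenced from leukaemic granulocyte-macrophage progenitors (L-GMP), sorted from bone marrow as lineage-negative, Sca-1-negative, c-Kit-positive, CD16/32-positive and CD34-positive cells, and labelled as leukaemia stem cells. All mice had MLL-AF9 leukaemia, named for the fusion oncogene behind it, and all carried Dekfl/fl. The 4 FL libraries had Dekfl/fl alone and the 4 KO libraries had Dekfl/fl,MX1-Cre, in which Mx1-Cre, an interferon-inducible transgene active in blood cells and some other tissues, can delete Dek, a gene for a chromatin-bound histone chaperone. KO libraries alone carried Mx1-Cre, so its effect and that of Dek loss cannot be told apart. The age, the time after deletion and the number of mice per group are not stated in the labels, nor is whether each library comes from its own mouse. P-values therefore cover the spread between these libraries only, and that spread may be technical.

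FL libraries held 44086524 to 58660705 counts and KO libraries 33941940 to 49736592. Dek averaged 152 CPM (counts per 1e6, scaled by TMM factors, which set aside the genes that differ most) in FL and 22.5 CPM in KO, a log2 fold change of -2.75 (with an SE of 0.19, adjusted p = 1.7e-05, edgeR quasi-likelihood, Benjamini-Hochberg adjusted), in the direction of the labels. Genes with at least 1 count numbered 24125 to 26053 in FL and 30606 to 37801 in KO. TMM factors spanned 0.682 to 0.912 across FL libraries and 1.20 to 1.26 across KO libraries. Scaling to total counts instead moved the median log2 fold change of all genes by 0.59, from 0.05 to 0.63 (each rounded). Of the sort markers Kit, Cd34, Fcgr3, Fcgr2b and Ly6a, 2 were called higher and 2 lower in KO, and their summed level was 1481 to 1860 CPM in FL and 1012 to 1369 CPM in KO. Ly6a encodes Sca-1, for which the cells were sorted as negative, so that sum mixes markers of both kinds. Of 6 eosinophil markers 5 were called higher, with sums of 21.3 to 114 CPM in FL and 246 to 1303 CPM in KO, highest in KO 2 and KO 3. The summed late neutrophil markers spanned 92.3 to 710 CPM in FL and 161 to 2434 CPM in KO, highest in KO 3, and those of mast cells and basophils 89.6 to 230 CPM in FL and 29.4 to 55 CPM in KO. The summed macrophage markers were 57.7 to 144 CPM in FL and 18 to 57.9 CPM in KO, while erythroid, lymphoid and stromal markers each summed to at most 26.6 CPM in any library. Of 5 mast cell and basophil markers 1 was called higher and 1 lower in KO, so the list did not move as one. Among 5 macrophage markers 1 was likewise called higher and 1 lower, and among 6 late neutrophil markers 0 higher and 1 lower. No marker on these lists was at 0 in all libraries, and Cd3e, Cd3g, Ebf1, Cdh5, Col1a1, Col1a2, Kdr, Epor, Fcer1a, C1qb, C1qc and Mrc1 were among those under 1 CPM in all. Their part in the results below was not tested.

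Promoters of 7 members are shown first, some for their large called changes and the last 3 because they hold a match marked below. RefSeq promoter sequences (GRCm38.p6, 250 bases before to 50 after each start) matched 69 of the 78 members by symbol. The 150 bases before the start are given 5′ to 3′ on the strand of the gene, in lower case. Capitals mark exact matches, on either strand, to the core GCGCATGCG of NRF1, to the core CCGGAAGT of ETS factors such as GABPA, or to the core AAGATGGCG of YY1. These 3 factors are known to bind promoters of nuclear genes for mitochondrial proteins. The Mrpl12, Mrps10 and Mrpl36 stretches belong to members with large falls under TMM scaling, and Mrpl14 is the member called higher. Mrps23, which fell more than Mrpl36, is not printed, nor are Mrpl20 and Mrpl2, and no match lay in their 300 bases. Among the 6 largest called falls, Mrpl36 alone held a match. Mrpl17 was called lower, and Mrpl32 and Mrpl39 gained in share of the mitoribosomal counts. These last 3 were chosen after their values were seen, because the printed stretch holds a match. The stretches lie at chr11:120484487-120484636 (plus strand) for Mrpl12, chr17:47369047-47369196 (plus strand) for Mrps10, chr13:73330859-73331008 (plus strand) for Mrpl36 and chr17:45686199-45686348 (plus strand) for Mrpl14, and at chr7:105811088-105811237 (minus strand) for Mrpl17, chr13:14613038-14613187 (minus strand) for Mrpl32 and chr16:84735245-84735394 (minus strand) for Mrpl39. All 7 RefSeq starts used lie inside the GENCODE gene span, farthest in for Mrpl36.
Mrpl12 promoter: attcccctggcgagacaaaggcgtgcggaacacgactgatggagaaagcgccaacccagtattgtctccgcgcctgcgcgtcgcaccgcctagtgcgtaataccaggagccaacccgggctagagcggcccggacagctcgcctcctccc
Mrps10 promoter: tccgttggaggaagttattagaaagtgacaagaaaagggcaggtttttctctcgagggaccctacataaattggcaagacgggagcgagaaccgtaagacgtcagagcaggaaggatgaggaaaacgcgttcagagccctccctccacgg
Mrpl36 promoter: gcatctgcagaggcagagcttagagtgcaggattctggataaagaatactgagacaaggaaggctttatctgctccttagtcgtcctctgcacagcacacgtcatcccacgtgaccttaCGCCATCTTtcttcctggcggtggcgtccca
Mrpl14 promoter: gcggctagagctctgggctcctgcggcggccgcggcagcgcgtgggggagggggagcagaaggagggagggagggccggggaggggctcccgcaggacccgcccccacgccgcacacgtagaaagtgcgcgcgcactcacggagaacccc
Mrpl17 promoter: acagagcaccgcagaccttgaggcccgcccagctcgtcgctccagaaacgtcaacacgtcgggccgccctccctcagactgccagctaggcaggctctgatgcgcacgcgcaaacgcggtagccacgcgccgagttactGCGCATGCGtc
Mrpl32 promoter: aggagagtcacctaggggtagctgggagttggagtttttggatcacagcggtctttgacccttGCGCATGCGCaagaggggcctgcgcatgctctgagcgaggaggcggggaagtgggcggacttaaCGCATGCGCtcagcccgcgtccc
Mrpl39 promoter: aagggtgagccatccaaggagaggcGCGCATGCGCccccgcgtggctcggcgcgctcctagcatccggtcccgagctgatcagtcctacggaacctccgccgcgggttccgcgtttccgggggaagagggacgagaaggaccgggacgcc

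The Mrpl17 stretch holds an NRF1 core close to the start, Mrpl36 holds a YY1 core on the opposite strand, and Mrpl39 holds a palindromic NRF1 core, which reads on both strands and is marked as 1 run. Mrpl32 holds a palindromic run and a further NRF1 core nearer the start. No exact match lay in the printed Mrpl12, Mrps10 and Mrpl14 stretches, or elsewhere in their 300 bases. Over the 300 bases, the NRF1 core was found in 7 of 69 member promoters (10.1%), against 3.48% of 11011 promoters of tested genes and 1.81% of all 27025. The ETS core was found in 11 (15.9%), against 8.15% and 4%, and the YY1 core in 8 (11.6%), against 3.06% and 1.49%. Any of the 3 cores was present in 7 of 20 promoters of members called lower under TMM scaling and in 18 of 47 promoters of members not called. A match is a stretch of letters, and binding was not measured.

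Summed over the 78 members, the mitoribosomal genes took 0.368%, 0.391%, 0.416% and 0.273% of all counts in FL 1 to 4, and 0.44%, 0.451%, 0.435% and 0.414% in KO 1 to 4. On this scale FL 4 was the lowest library, and KO 4 lay just under FL 3, so that the groups overlapped. Scaled by TMM, the sums were 4158, 4293, 5245 and 3998 CPM in FL and 3662, 3604, 3586 and 3337 CPM in KO, with means of 4423 ± 561 and 3547 ± 144 CPM (SD, n = 4 per group). On that scale all KO libraries were under the lowest FL library, and FL 3 was the highest. The direction of the summed level thus turned with the scaling, from 3619 ± 626 in FL and 4351 ± 155 in KO per 1e6 total counts.

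**Figure D1:**
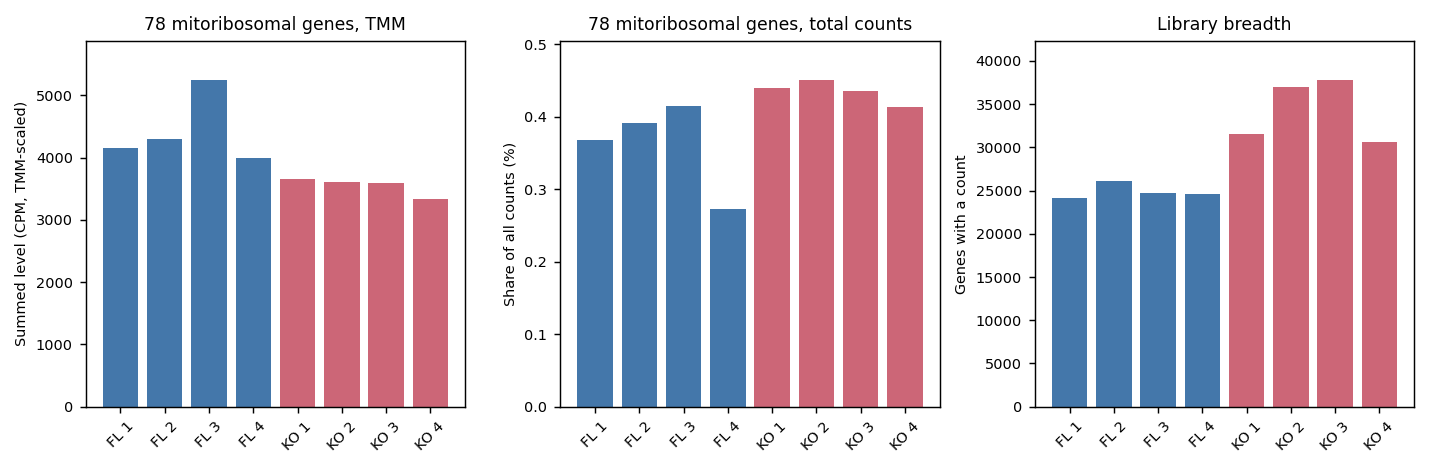
Summed level of the 78 mitoribosomal genes in each library in CPM with TMM scaling (left) and as a percentage of all counts (middle), with the number of genes detected (right); each bar is 1 library, blue for FL and red for KO. KO bars are lower on the left, where the means are 4423 and 3547 CPM, but mostly higher in the middle, and each KO library detects more genes than any FL library.

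In sorted bulk samples, fewer cells of a type and less RNA per cell cannot be told apart. Under TMM scaling 22 of 77 members were called lower in KO (28.6%) and 1 higher (1.30%) at an adjusted p of 0.05, against a background of 14.9% lower and 13.0% higher among all 17418 genes tested. The other 54 were not called, of which 42 had log2 fold changes below 0 and 12 at or above 0. Unadjusted p was under 0.05 for 44 members, and the share of all genes under that cut was not computed. Log2 fold changes spanned -0.87 to 0.44 with a median of -0.28 and quartiles of -0.44 and -0.06. Under total-count scaling 0 members were called lower (0 at an unadjusted p under 0.05) and 26 higher (33.8%), against a background of 5.09% lower and 51.4% higher, and the median turned to 0.31. All 22 lower calls were lost on that scale and the higher call of Mrpl14 was kept.

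Another scaling moves all genes by nearly the same amount, so the place of the members among all genes is set largely apart from it. Their median lay 0.33 below that of all genes tested on the log2 scale under either scaling, and 67 of 77 members had a fold change under the all-gene median under both. Groups did not overlap, with KO below FL, for 32 of 77 members under TMM scaling against 15.8% of all genes. KO lay above FL for 3 of 77 (Mrpl14, Mrpl39 and Mrps36, named after their values were seen) against 15.1%. Under total-count scaling KO lay below FL for 0 of 77 members against 4.67% of genes. On that scale KO lay above FL for 36 of 77 members, a share close to the 47.2% of all genes. With the count of detected genes as a covariate, 0 members were called, against 205 of all 17418 genes tested, so few genes of any kind were called. An unadjusted p under 0.05 was found for 7 members, a cut for which no share of all genes was computed. The count of detected genes separates the groups completely, so the covariate and the group cannot be told apart.

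**Figure D2:**
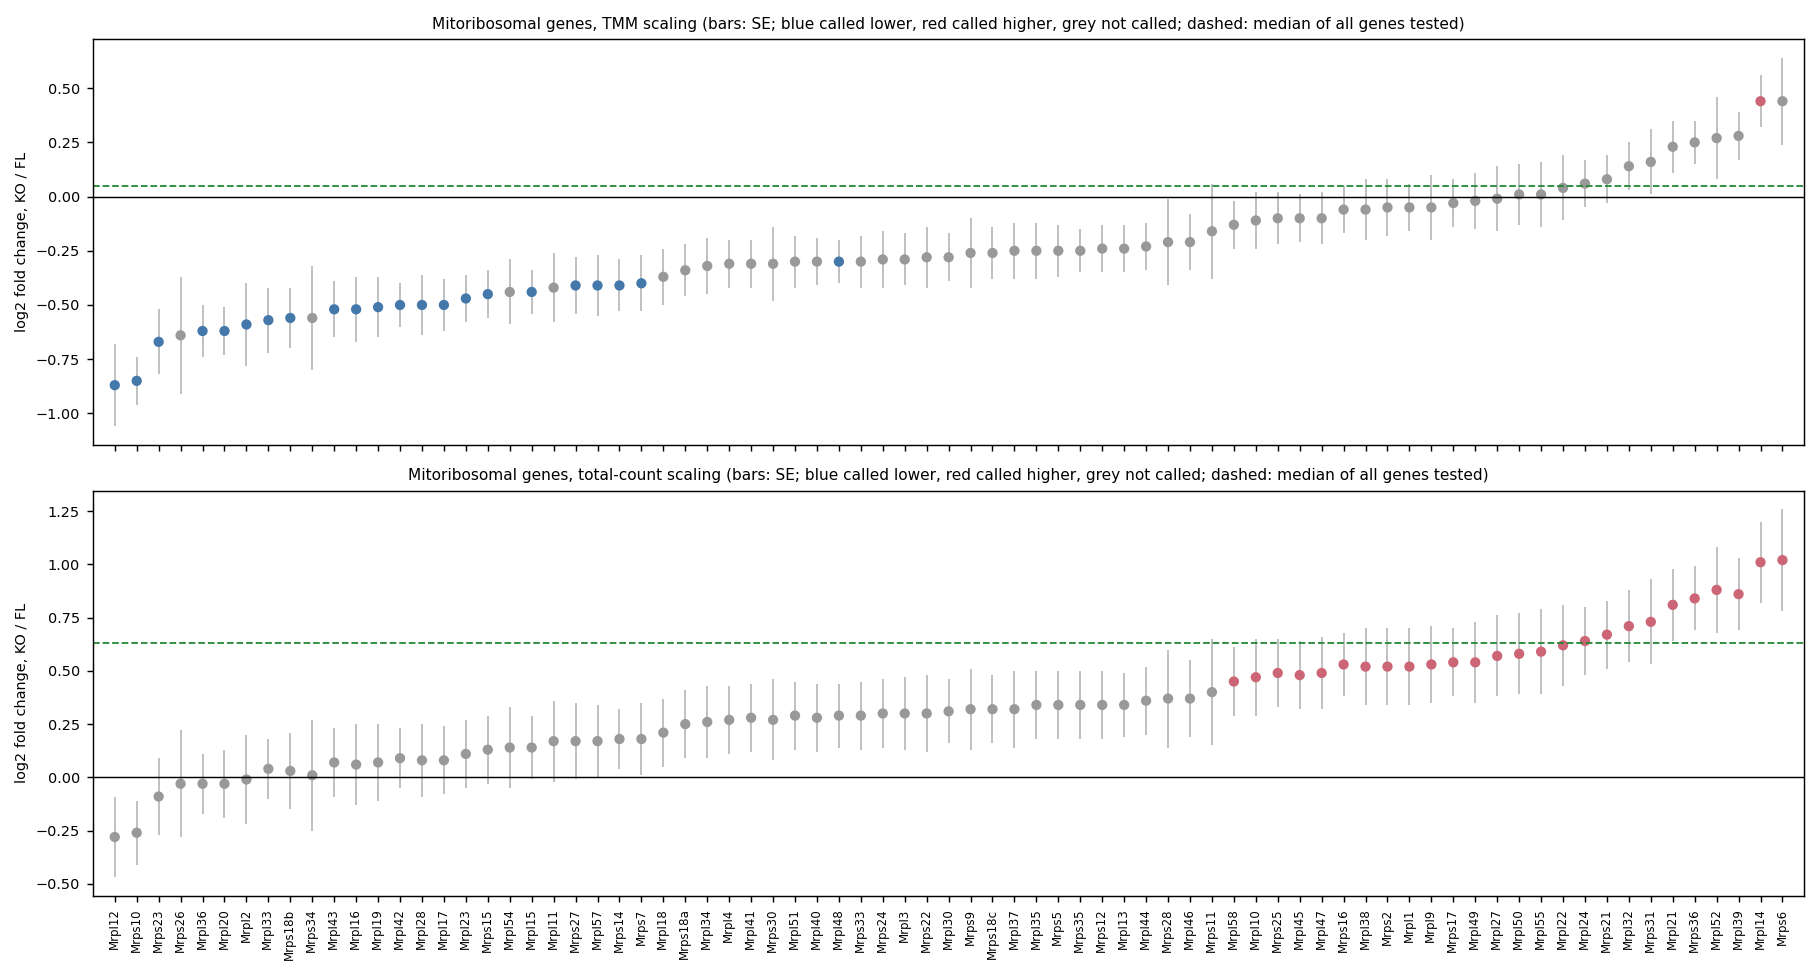
Log2 fold change of each of the 77 tested mitoribosomal genes, KO over FL, with TMM scaling (top) and total-count scaling (bottom), in the order of the top panel; points are estimates, bars are standard errors, the dashed line is the median of all genes tested, and colours are calls at an adjusted p of 0.05. With TMM 22 genes are called lower and 1 higher, with total counts 0 lower and 26 higher, and in both panels 67 genes lie under the dashed line.

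Fold changes tended to be lower in more abundant genes. Across the 77 members, Spearman's rank correlation between the log2 fold change under TMM scaling and the mean level was -0.53, against -0.36 over all genes tested and -0.38 over those passing 5 CPM in 4 libraries. These are descriptions over genes that share the same 8 libraries. In FL the members' mean level spanned 5.64 to 166 CPM with a median of 52.8 CPM. Among the 10013 genes passing 5 CPM in 4 libraries, 17 of the 77 members were called lower and 3 higher, against a background of 17.7% lower and 13.7% higher, and the medians were -0.22 for the members and 0.01 for all genes. The excess of members called lower was thus smaller here than among all genes tested, where it was 28.6% against 14.9%. The rank correlation with exonic length was -0.14 over members and 0.19 over all genes, and with GC content -0.07 and -0.14. The median exonic length was 2533 bases for members and 3528 bases for all genes.

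**Figure D3:**
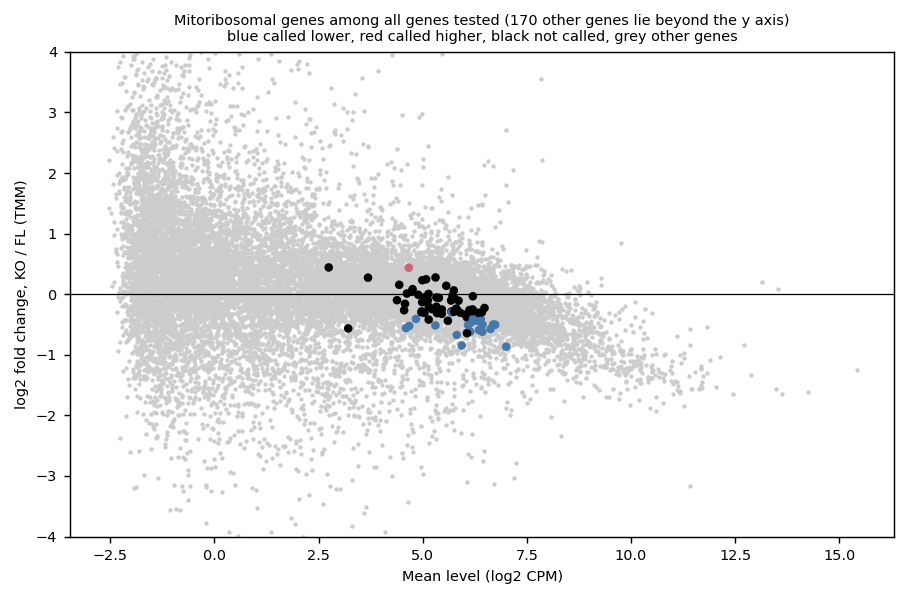
Log2 fold change under TMM scaling (y axis, cropped at 4 either side of 0, which leaves out 170 genes) against mean level in log2 CPM (x axis) for all genes tested; grey points are other genes, and blue, red and black points are mitoribosomal genes called lower, called higher and not called. The coloured points sit among well-expressed genes, where the grey cloud also bends below 0; under total-count scaling the whole cloud lies 0.59 higher at its median.

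The large and small subunits had close medians. Of 50 tested large-subunit genes, 15 were called lower and 1 higher under TMM scaling, with a median of -0.29 (18 higher, 0 lower and a median of 0.29 under total-count scaling). Of 26 small-subunit genes, 7 were called lower and 0 higher, with a median of -0.26 (7 higher, 0 lower and 0.32). The summed levels under TMM scaling were 3114 ± 397 CPM in FL and 2484 ± 86.0 CPM in KO for the large subunit, and 1278 ± 166 and 1027 ± 58.2 CPM for the small subunit (SD, n = 4 each). Both sums had KO below FL in all libraries on that scale. Proteins with a bacterial counterpart had 15 lower and 1 higher of 46 with a median of -0.26, and mitochondria-specific proteins had 7 lower and 0 higher of 30 with a median of -0.30 (0.32 and 0.29 under total-count scaling). The shares called lower under TMM scaling were 30% and 26.9% for the large and small subunits. They were 32.6% with and 23.3% without a bacterial counterpart, against 14.9% of all genes tested. Under total-count scaling 36% of large-subunit and 26.9% of small-subunit genes were called higher, below the 51.4% of all genes. The medians of all genes were 0.05 under TMM and 0.63 under total-count scaling. No difference between these classes was tested.

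Mrpl12 encodes the protein of the flexible stalk of the large subunit, which recruits elongation factors, and in human cells it also binds the mitochondrial RNA polymerase. It lies at chr11:120484613-120489065 on the plus strand (mm10, ENSMUSG00000039640, protein coding), and was the most abundant member per length in FL, at 108 CPM per kb of exonic sequence. Its level was 146, 141, 236 and 140 CPM in FL and 107, 92.7, 91.8 and 71.9 CPM in KO. All 4 KO libraries were under the lowest FL library on this scale, and FL 3 stood above the rest of FL. Its log2 fold change was the largest fall among the members under TMM scaling, -0.87 (with an SE of 0.19 and an adjusted p of 0.0063), or 1.82-fold lower. Without FL 3 it was -0.66 (adjusted p = 0.0073), and under total-count scaling -0.28 (adjusted p = 0.22). Its exons share 200 bases with the lincRNA gene Gm16755 on the opposite strand.

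Mrps10, which encodes a small-subunit head protein of the bacterial uS10 family, had the smallest p among the members. It lies at chr17:47368887-47381417 on the plus strand (ENSMUSG00000034729). Levels were 68.0, 80.3, 89.5 and 76.7 CPM in FL and 47.6, 42.9, 44.5 and 39.9 CPM in KO. The KO libraries were tightly grouped and none reached the lowest FL library. The log2 fold change was -0.85 (with an SE of 0.11 and an adjusted p of 4.4e-04), or 1.80-fold lower. Under total-count scaling it was -0.26 (adjusted p = 0.15).

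Other large falls under TMM scaling, all near 0 under total-count scaling, were in Mrps23, Mrpl36, Mrpl20 and Mrpl2. Mrps23, a mitochondria-specific small-subunit gene at chr11:88204388-88211507 on the plus strand, had 60.3, 69.9, 90.2 and 56.1 CPM in FL and 43.4, 42.3, 47.1 and 40.7 CPM in KO. Its log2 fold change was -0.67 (with an SE of 0.15 and an adjusted p of 0.0065), and -0.09 under total-count scaling. Mrpl36, which encodes a small zinc-binding protein of the bacterial bL36 family and lies at chr13:73328513-73332178 on the plus strand, had 92.8, 98.1, 123 and 104 CPM in FL and 75.1, 62.5, 68.9 and 65.5 CPM in KO. In both genes all KO libraries lay below all FL libraries on this scale. The log2 fold change of Mrpl36 was -0.62 (with an SE of 0.12 and an adjusted p of 0.0029), and -0.03 under total-count scaling. With an offset for GC content and length it was -0.33 (adjusted p = 0.048).

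Mrpl20, of the bacterial bL20 family, which binds rRNA early in bacterial large-subunit assembly, lies at chr4:155802878-155809975 on the plus strand. It had 75.4, 86.1, 101 and 78.6 CPM in FL and 54.5, 56.8, 58.0 and 52.8 CPM in KO, a log2 fold change of -0.62 (with an SE of 0.11 and an adjusted p of 0.0025), and -0.03 under total-count scaling. Mrpl2, of the uL2 family, whose bacterial member sits near the peptidyl transferase centre, lies at chr17:46646229-46650139 on the plus strand. It had 85.2, 88.4, 146 and 72.6 CPM in FL and 71.2, 67.7, 64.1 and 57.5 CPM in KO, with FL 3 far above the other FL libraries and FL 4 close to KO 1. Its log2 fold change was -0.59 (with an SE of 0.19 and an adjusted p of 0.042), and the call was among the least stable. It was -0.35 (adjusted p = 0.052) without FL 3 and -0.22 (adjusted p = 0.35) with the GC and length offset, and the adjusted p was up to 0.085 without any 1 of the KO libraries.

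Mrpl42 and Mrpl28 were less changed but among the abundant members. Mrpl42, a mitochondria-specific large-subunit gene, had 104, 93.1, 109 and 98.8 CPM in FL and 73.7, 75.4, 72.6 and 64.6 CPM in KO (log2 fold change -0.50 with an SE of 0.10, adjusted p = 0.0041), turning to 0.09 under total-count scaling. Mrpl28, of the bacterial bL28 family, had 118, 117, 159 and 106 CPM in FL and 93.6, 93.2, 92.4 and 74.0 CPM in KO (log2 fold change -0.50 with an SE of 0.14, adjusted p = 0.022), turning to 0.08. With the GC and length offset Mrpl28 was at -0.21 (adjusted p = 0.22) and not called. Both had KO below FL in every library under TMM scaling. Per kb of exonic length, Mrpl28, Mrpl36 and Mrpl2 followed Mrpl12 in FL with 90.7, 90 and 83.8 CPM per kb, and Mrpl47 and Mrps6 were the lowest tested members with 4.87 and 3.68 CPM per kb. The order of Mrpl28, Mrpl36 and Mrpl2 is within the spread between libraries. Without KO 2 and KO 3, the libraries with the most genes detected and the highest eosinophil sums, 4 lower calls were left under TMM scaling, those of Mrps10, Mrpl20, Mrpl42 and Mrps15. In that fit 2342 of all genes were called in either direction, against 4853 with all libraries. The share of all genes called lower in it was not computed, so an excess among the members cannot be read from it.

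Mrpl14 was the 1 member called higher. It encodes a uL14-family protein at the face of the large subunit that meets the small subunit, and in human mitochondria the assembly factor MALSU1 binds it. It lies at chr17:45686322-45698495 on the plus strand (ENSMUSG00000023939). Its level was 20.4, 25.3, 21.3 and 18.9 CPM in FL and 29.0, 31.7, 27.3 and 28.6 CPM in KO. Every KO library was above every FL library. The log2 fold change was 0.44 (with an SE of 0.12 and an adjusted p of 0.022), or 1.35-fold higher, and 1.01 under total-count scaling (adjusted p = 7.6e-04). With single libraries left out the adjusted p under TMM scaling was 0.014 to 0.082, and the call was lost without FL 1, FL 4, KO 1 or KO 2. With the GC and length offset the log2 fold change was 0.83 (adjusted p = 0.0049). Its exons share 106 bases with Tmem63b on the opposite strand.

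Mrps6, the least abundant tested member and of the bacterial bS6 family, had 6.44, 5.57, 5.41 and 5.12 CPM in FL and 8.47, 9.69, 5.56 and 6.90 CPM in KO. KO 3 lay within the FL range. Its log2 fold change under TMM scaling was 0.44 (with an SE of 0.20 and an adjusted p of 0.13) and was not called, and with the GC and length offset it was 0.62 (adjusted p = 0.044). It shares 305 exonic bases with Gm49711 and 159 with Slc5a3 on the same strand, so its counts are uncertain. Mrpl47, of the uL29 family, had 20.1, 20.6, 24.9 and 20.4 CPM in FL and 21.7, 19.7, 20 and 18.9 CPM in KO, a log2 fold change of -0.10 (with an SE of 0.12 and an adjusted p of 0.58).

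The Mrps18 paralogs are 3 relatives of the bacterial protein bS18. Mrps18a sits in the large subunit and Mrps18b and Mrps18c in the small one. All 3 had all KO libraries under the lowest FL library under TMM scaling, and Mrps18b alone was called. Mrps18b had 26.5, 27.1, 35.4 and 26.2 CPM in FL and 21.9, 18.3, 20.9 and 17.1 CPM in KO (log2 fold change -0.56 with an SE of 0.14, adjusted p = 0.014), with 0.03 under total-count scaling. Mrps18a had 67.1, 70.3, 87.0 and 65.4 CPM in FL and 60.4, 61.3, 56.1 and 51.8 CPM in KO (log2 fold change -0.34 with an SE of 0.12, adjusted p = 0.056). Mrps18c had 23.1, 24.5, 30.3 and 24.4 CPM in FL and 20.8, 20.9, 22.4 and 21.1 CPM in KO (log2 fold change -0.26 with an SE of 0.12, adjusted p = 0.13). Under total-count scaling Mrps18a and Mrps18c were at 0.25 and 0.32 and not called. Mrps18b shares 638 exonic bases with Gm16279 on the opposite strand and Mrps18c 250 with Gm43511 on the same strand. Differences between the paralogs were not tested.

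Mrpl53, a mitochondria-specific large-subunit gene, had 0 counts in 7 libraries and 4 counts in KO 4. It shares 695 of its 790 exonic bases with Gm42688 on the same strand, so that reads of either gene may have been set aside or given to the other. In all, 33 members share exonic bases with another gene, 28 of them on the opposite strand and 27 by 100 bases or more, including 8 of those called lower. The strand setting of the counting is not stated.

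To see how the members changed relative to each other, each library was also scaled to its summed mitoribosomal counts, an alternative chosen after the data were seen. The fold changes are then relative to the members alone, while the spread and the p-value adjustment still draw on all genes tested. By the same edgeR test 3 members were called lower (3.90%) and 9 higher (11.7%), against a background of 7.34% lower and 25.1% higher among all genes. This scaling itself centres the members, with medians of 0.04 for them and 0.35 for all genes. The shares of members and of all genes therefore cannot be compared here. The members called lower were Mrpl12, Mrps10 and Mrps23. Those called higher were Mrpl14, Mrps6, Mrpl52, Mrpl39, Mrps36, Mrpl21, Mrps31, Mrpl32 and Mrpl22.

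Mrpl12 made up 3.51%, 3.29%, 4.49% and 3.51% of the mitoribosomal counts in FL and 2.93%, 2.57%, 2.56% and 2.15% in KO (log2 fold change -0.53 with an SE of 0.14, adjusted p = 0.017). Mrps10 made up 1.63%, 1.87%, 1.71% and 1.92% in FL and 1.30%, 1.19%, 1.24% and 1.20% in KO (log2 fold change -0.53 with an SE of 0.11, adjusted p = 0.0061). Both fell in share in every KO library relative to every FL library. Mrps23 went from 1.55 ± 0.148% to 1.22 ± 0.0638% (SD, n = 4 each; log2 fold change -0.34, adjusted p = 0.047).

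Mrpl14 made up 0.492%, 0.59%, 0.407% and 0.474% in FL and 0.791%, 0.878%, 0.761% and 0.858% in KO (log2 fold change 0.74 with an SE of 0.15, adjusted p = 0.0044). The ratio of Mrpl14 to Mrpl12 levels was 0.14, 0.179, 0.0906 and 0.135 in FL and 0.27, 0.342, 0.298 and 0.398 in KO. It was higher in all KO libraries than in any FL library, which follows in part from the choice of both genes by these values. Mrpl39, a mitochondria-specific large-subunit gene at chr16:84717576-84735742 on the minus strand, went from 0.813 ± 0.0711% to 1.22 ± 0.0923% (log2 fold change 0.59 with an SE of 0.13, adjusted p = 0.0059). Mrpl32, of the bL32 family, whose mouse precursor is cleaved by the m-AAA protease before it joins the ribosome, lies at chr13:14608184-14613165 on the minus strand and went from 1.02 ± 0.0901% to 1.40 ± 0.100% (log2 fold change 0.45 with an SE of 0.12, adjusted p = 0.017). Mrpl21, of the bL21 family, went from 0.663 ± 0.0447% to 0.965 ± 0.0640% (log2 fold change 0.54 with an SE of 0.12, adjusted p = 0.0086). For these 4 genes the KO shares lay above all FL shares.

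Mrps36, whose product belongs to the 2-oxoglutarate dehydrogenase complex of the citric acid cycle, went from 0.709 ± 0.115% to 1.04 ± 0.0486% of the summed counts (log2 fold change 0.55 with an SE of 0.14, adjusted p = 0.016). Mrpl12, Mrps10, Mrpl14, Mrpl21, Mrpl32, Mrpl39 and Mrps36 kept their calls with each of the 8 libraries left out in turn. With the GC and length offset the calls of Mrpl12, Mrps23 and Mrps31 were lost, and with the replicate block those of Mrps23 and Mrpl22. The calls of Mrps23, Mrpl22, Mrpl52, Mrps6 and Mrps31 held in 1, 1, 3, 4 and 5 of those 8 fits. Without KO 2 and KO 3 together, Mrpl14 alone was called (0 lower and 1 higher), and once the count of detected genes entered as a covariate, 0 were.

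**Figure D4:**
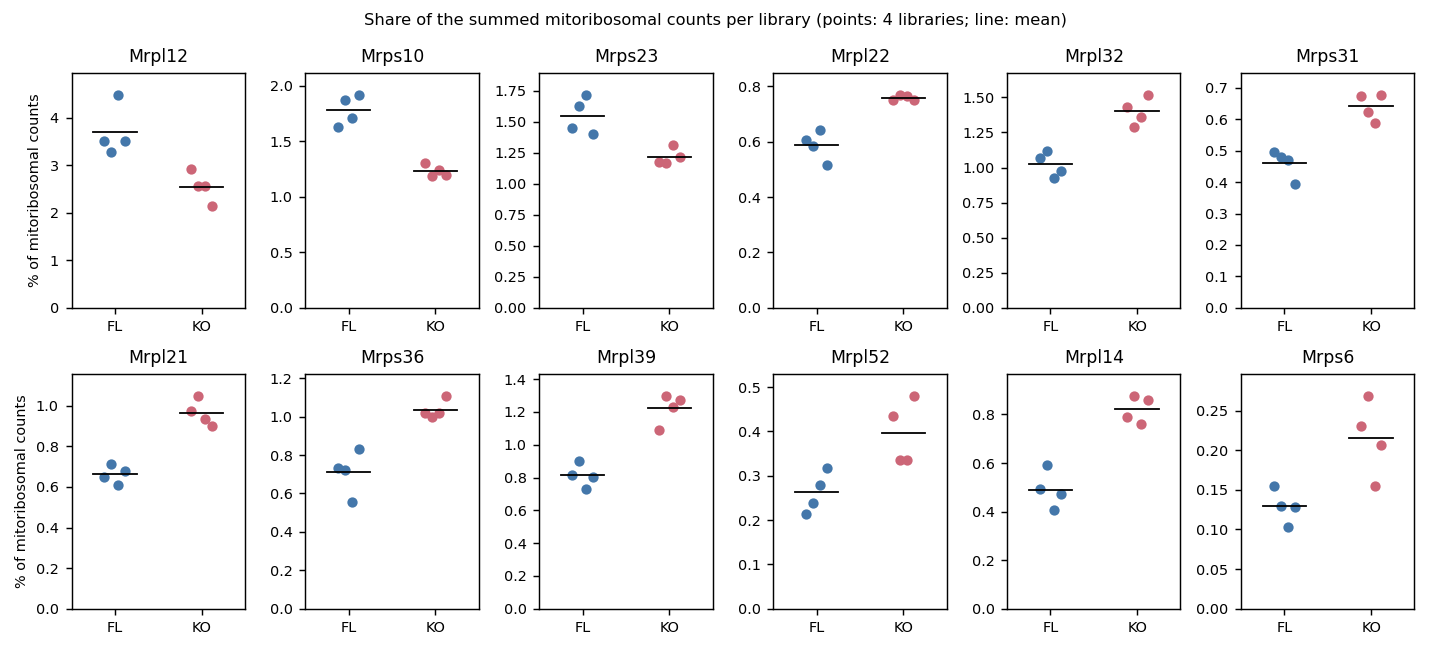
Share of the summed mitoribosomal counts, in percent (y axes, each from 0), for the 12 members called when each library is scaled to that sum; each point is 1 library, lines are means, blue is FL and red is KO. In Mrpl12, Mrps10 and Mrps23 the KO points lie below the FL points, from means of 3.70% to 2.55% for Mrpl12, and in the other 9 genes above or level with them, from 0.491% to 0.822% for Mrpl14.

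Other genes of mitochondrial translation were taken from lists of known factors. The background for each list is the share of all genes tested, 14.9% lower and 13.0% higher under TMM scaling. Under total-count scaling it is 5.09% lower and 51.4% higher. Without KO 2 and KO 3 the calls given below for Aurkaip1, Dap3, Ddx28, Mtg1, Tfb1m, 2810006K23Rik, Tufm, Ears2, mt-Rnr1 and mt-Rnr2 were lost, and with the count of detected genes as a covariate 0 genes of these lists were called. Of 5 tested mitoribosomal proteins whose symbols do not carry the Mrp name, 2 were called lower under TMM scaling and 0 higher, with a median of -0.27 (0.31 under total-count scaling). Aurkaip1 fell by 0.55 (with an SE of 0.11, adjusted p = 0.0050) and Dap3, a GTP-binding small-subunit protein, by 0.46 (with an SE of 0.10, adjusted p = 0.0065), both on the log2 scale. Under total-count scaling they were at 0.04 and 0.13 and not called. Gadd45gip1 had a log2 fold change of -0.27 (adjusted p = 0.34).

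Of 26 assembly and rRNA-modification genes, 4 were called lower and 3 higher under TMM scaling, with a median of -0.10 (14 higher, 0 lower and 0.49 under total-count scaling). These shares, 15.4% lower and 11.5% higher under TMM scaling, were close to the background of 14.9% and 13.0%. The 53.8% called higher under total-count scaling was close to the background of 51.4%. Tfb1m, which encodes the methyltransferase of the small rRNA, had 7.19, 6.87, 6.0 and 8.97 CPM in FL and 11.7, 13.1, 10.7 and 10.8 CPM in KO, and rose by 0.67 on the log2 scale (with an SE of 0.17, adjusted p = 0.012). All KO libraries were above all FL libraries. Ddx28, an RNA helicase of large-subunit assembly, had a log2 fold change of -0.54 (adjusted p = 0.0079) and Mtg1, a GTPase of the same process, -0.47 (adjusted p = 0.010), which turned to 0.03 and 0.10 under total-count scaling.

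Of 14 translation factors 1 was called lower and 1 higher (7.14% each), with a median of -0.02 (8 higher, 0 lower and 0.56). The elongation factor gene Tufm had a log2 fold change of -0.39 (adjusted p = 0.027; 0.19 under total-count scaling), a call kept under 10 of 21 alternatives and lost with the GC and length offset (adjusted p = 0.097), the replicate block (adjusted p = 0.057), and without FL 1, FL 2, KO 2 or KO 4, and its partner Tsfm of -0.40 (adjusted p = 0.061). 2810006K23Rik, the mouse counterpart of the ribosome-rescue factor gene MTRFR, had 17.2, 14.7, 10.3 and 14.3 CPM in FL and 22.1, 24.8, 23.6 and 22.8 CPM in KO, and rose by 0.72 on the log2 scale (with an SE of 0.16, adjusted p = 0.0066).

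Of 17 mitochondrial aminoacyl-tRNA synthetase genes 3 were called lower and 0 higher, with a median of -0.14 (1 lower, 10 higher and 0.45 under total-count scaling). The share called lower was 17.6%, against 14.9% of all genes. Lars2, which charges leucine tRNA, had 590, 656, 888 and 1463 CPM in FL and 348, 241, 307 and 311 CPM in KO. FL 4 was the highest, as it was for the mitochondrial rRNAs below, and all KO libraries were below all FL libraries. The log2 fold change was -1.58 (with an SE of 0.26 and an adjusted p of 0.0015), and -0.93 under total-count scaling (adjusted p = 0.0013). Both values were close to those of mt-Rnr2 below. The FL mean of Lars2 was 899 CPM, against 89.4 CPM for Iars2, the next highest gene of this list. Whether Lars2 shares reads with mt-Rnr2 was not tested, so its counts are uncertain. Iars2 had a log2 fold change of -0.66 (adjusted p = 5.9e-04; -0.07 under total-count scaling) and Ears2 of -0.50 (adjusted p = 0.016; 0.09), a call lost without KO 2 (adjusted p = 0.057).

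The RNAs of the mitochondrial genome itself were lower under both scalings in most cases. The mitochondrial small rRNA mt-Rnr1 had 321, 347, 394 and 920 CPM in FL and 246, 218, 245 and 257 CPM in KO (log2 fold change -1.04 with an SE of 0.30, adjusted p = 0.023; -0.38 and not called under total-count scaling, adjusted p = 0.14). The large rRNA mt-Rnr2 had 19432, 20675, 22325 and 54161 CPM in FL and 10267, 8520, 9617 and 9540 CPM in KO (log2 fold change -1.62 with an SE of 0.31, adjusted p = 0.0034; -0.96 under total-count scaling, adjusted p = 0.0015). FL 4 was far above the other FL libraries for both. Without FL 4 the log2 fold change of mt-Rnr1 was -0.57 (adjusted p = 0.0068), and without KO 2 its call was lost (-0.99, adjusted p = 0.067). Nuclear copies of mitochondrial sequence can share reads with these genes, so their counts are uncertain. Of 13 mitochondrial mRNAs 12 were called lower and 0 higher with a median of -1.25 (9 lower, 1 higher and -0.64 under total-count scaling). The largest fall was in mt-Atp8, a subunit of ATP synthase, with 48.1, 42.5, 58.4 and 62.7 CPM in FL and 15.1, 11.6, 19.5 and 18.9 CPM in KO (log2 fold change -1.70 with an SE of 0.19, adjusted p = 1.6e-04; -1.09 under total-count scaling). mt-Co1, of cytochrome oxidase, and mt-Cytb, of complex III, had log2 fold changes of -1.33 and -1.31 (adjusted p = 1.8e-04 and 1.9e-04), and -0.73 and -0.71 under total-count scaling.

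Of 15 import, chaperone and matrix genes 9 were called lower and 0 higher under TMM scaling, with a median of -0.54 that turned to 0.04 under total-count scaling, where 0 were called. Hspd1, the mitochondrial chaperonin, had a log2 fold change of -0.90 (adjusted p = 8.6e-04), the import receptor Tomm20 of -0.84 (adjusted p = 0.0018) and Hspa9, the import-motor chaperone, of -0.75 (adjusted p = 0.0023), or -0.31, -0.25 and -0.16 under total-count scaling. Of 9 genes for transcription and maintenance of mitochondrial DNA, 0 were called under TMM scaling, with a median of -0.17 (3 higher, 0 lower and 0.41); the 3 with the smallest p, Polg, Twnk and Tfb2m, had log2 fold changes of -0.43, -0.23 and -0.21. Of 8 regulators of nuclear genes for mitochondria 0 were called, with a median of -0.19 (4 higher, 0 lower and 0.41). Nrf1, whose product recognises the core shown in the promoters above, had a log2 fold change of -0.25 (adjusted p = 0.13), Gabpb1 of -0.13 (adjusted p = 0.37) and Myc of -0.35 (adjusted p = 0.38). With the GC and length offset Nrf1 was at -0.57 (adjusted p = 0.0030) and Gabpb1 at -0.34 (adjusted p = 0.029).

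**Figure D5:**
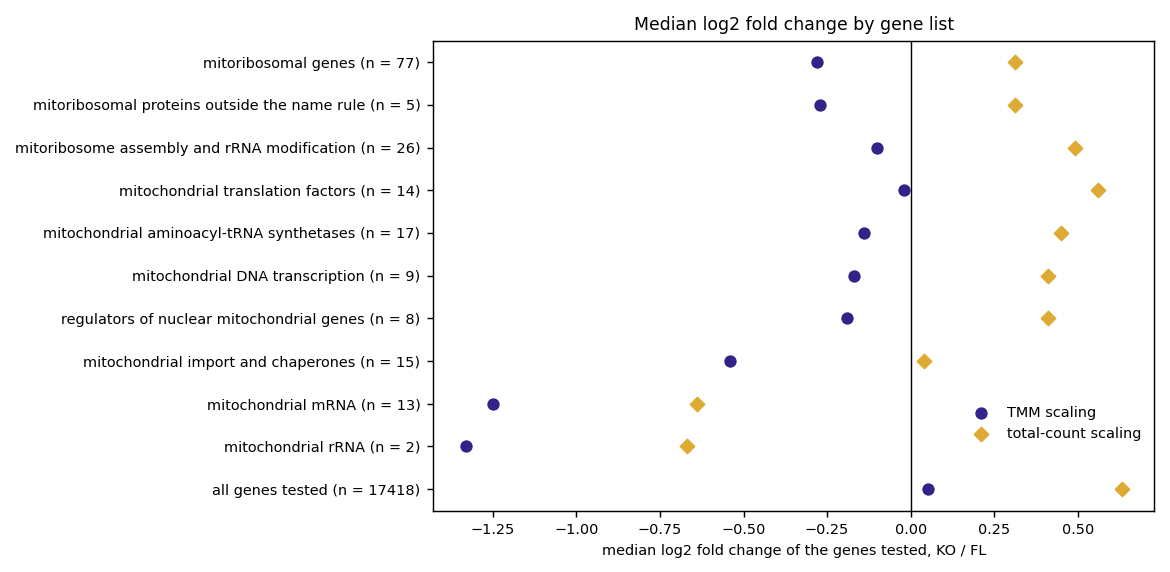
Median log2 fold change, KO over FL, of the tested genes of each list (y axis, with the number tested) under TMM scaling (circles) and total-count scaling (diamonds). The mitoribosomal genes lie at -0.28 and 0.31, to the left of all genes at 0.05 and 0.63; the lists of RNAs from the mitochondrial genome are the 2 that stay below 0 under both.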

How the data were processed

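Total RNA from sorted cells was reverse-transcribed and amplified by Geo-seq, a full-length amplification for small inputs, and made into libraries with a transposase kit, per the labels' protocols, which describe no molecular identifiers. The authors deposited raw read counts per gene for 8 libraries, with columns named wild type and knockout; wild type was read as FL. The submitters' processing notes name mm10, Bowtie 0.12.9, HTSeq 0.13.5 and DESeq2 without roles, and the deposited sheet names featureCounts. Annotation, strand setting and the handling of multi-mapped reads are not stated, so overlapping genes and pseudogenes may share counts. The 6 Mrp-named pseudogenes in the table were not members.

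KO and FL were compared with edgeR 4.0.16 (R 4.3.3): TMM factors, filterByExpr, a quasi-likelihood F test without covariate, and Benjamini-Hochberg adjustment over 17418 genes at 0.05. The standard error is the size of the log2 fold change over the square root of F. Lengths, positions and overlaps came from GENCODE M21, matched by symbol for 53292 of 55291 genes; length and GC content were known for all 77 tested members and for 16995 (97.6%) of tested genes. Mrps18a and Mrps18b were counted as mitochondria-specific. The edgeR steps were run on simulated counts with known changes in both directions and no general shift between groups. That run does not bear on the choice of scaling. No libraries were copies: within groups, pairs differed by a chi-square per degree of freedom of at least 21.2. Alternatives were DESeq2 1.42.0, limma 3.58.1 voom with quality weights, other scalings, count filters, the replicate number as a block, a GC and length offset, the count of detected genes as a covariate, and libraries left out; scaling to the summed member counts was added after the data were seen.

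Named members were the 6 largest called falls and 6 largest rises (1 existed), the 4 highest and 2 lowest levels per kb in FL, the Mrps18 paralogs, untested members, the 4 with the smallest p among calls that total-count scaling ended, and up to 3 genes with the smallest p per other list. Genes named for their share of the summed counts were chosen after their values were seen. Members and lists were chosen with earlier results of these data known.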

Additional observations from a re-analysis of the deposited data

Results flagged for a closer look

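In each group of 4 libraries, the highest and the lowest value of every named gene were compared with the rest of the group, and a gap to the nearest library beyond Dixon's critical share of the group's range for 4 values was marked. The 85 groups examined included some beyond those of the named genes. Of these 85 groups 9 were marked, and chance marks about 1 in 20. The genes share the same libraries, so the marks are not independent.

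FL 3 stood above the other FL libraries for Mrpl12 (236 CPM against 140 to 146), Mrpl47 (24.9 against 20.1 to 20.6), Mrps18b (35.4 against 26.2 to 27.1) and Dap3 (96.3 against 81.7 to 82.8), all under TMM scaling. FL 4 stood above the others for mt-Rnr2 (54161 CPM against 19432 to 22325) and mt-Rnr1 (920 against 321 to 394). FL 2 was the lowest for Hspd1 (445 CPM against 531 to 544). KO 4 was the lowest KO library for Mrpl28 (74 CPM against 92.4 to 93.6) and the only one with counts of Mrpl53 (0.0648 CPM against 0). Where the rest of a group is at 0, as for Mrpl53, any count is marked.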

How the results depend on the processing

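The direction of the members' median followed the scaling: -0.28 under TMM became 0.31 with total counts, 0.25 with total counts without the 10 most abundant genes and 0.04 with scaling to the summed member counts. It stayed between -0.36 and -0.20 under all other alternatives. Members called lower went from 22 to 0, 1 and 3 under those scalings, to 0 with genes detected as a covariate, to 4 without KO 2 and KO 3, and to 15 to 28 with single libraries left out. DESeq2 called 23 lower and voom 25, each sharing 22 with edgeR. Members called higher, 1 at first, were 26, 26 and 9 under those scalings, 2 with DESeq2 or voom, 0 without a count filter, 3 at 5 CPM, 0 with the covariate or without KO 2 and KO 3, 5 with the GC and length offset alone or with the block, and 0 to 1 with single libraries left out. Genes called in all, 4853, were 9836 and 9486 under both total-count scalings, 3140 at 5 CPM, 205 with the covariate and 2342 without KO 2 and KO 3. Genes of the other lists called lower, 33, were 11, 13 and 18 under the 3 scalings, 0 with the covariate and 19 without KO 2 and KO 3. Those called higher, 4, were 42, 41 and 14, then 0 with the covariate or without KO 2 and KO 3, and as low as 2 with single libraries left out. Relative to the summed member counts, 3 lower and 9 higher became 0 and 1 without KO 2 and KO 3, 0 and 0 with the covariate, 16 higher with the GC and length offset, and 2 to 3 lower and 5 to 10 higher with single libraries left out. The cause of these changes was not tested.

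Same-numbered libraries did not pair: correlations of their deviations from the group means were 0.032, -0.0137, 0.0652 and -0.0339, and 1 of 4 matched its own number best. With the replicate block 19 members were lower, and 2 genes of the other lists were higher (1 with the GC and length offset as well).

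For the 41 tested of the 42 named genes, 902 comparisons with an alternative gave 732 with the same direction and call, 109 that lost the call, 16 that gained it and 45 that turned. With total counts, and with total counts without the 10 most abundant genes, the turned log2 fold changes were 0.08 and 0.03 for Mrpl28, 0.49 and 0.43 for Mrpl47, 0.09 and 0.03 for Mrpl42, 0.25 and 0.19 for Mrps18a, 0.32 and 0.27 for Mrps18c, 0.13 and 0.07 for Dap3, 0.31 and 0.26 for Gadd45gip1, 0.10 and 0.05 for Mtg1, 0.19 and 0.13 for Tufm, 0.18 and 0.12 for Tsfm, 0.09 and 0.03 for Ears2, 0.18 and 0.11 for Polg, 0.36 and 0.30 for Twnk, 0.37 and 0.31 for Tfb2m, 0.33 and 0.27 for Nrf1, 0.46 and 0.40 for Gabpb1, and 0.23 and 0.18 for Myc. With total counts alone they were 0.03 for Mrps18b, 0.04 for Aurkaip1 and 0.03 for Ddx28. With scaling to the summed member counts they were 0.22 for Mrpl47, 0.05 for Mrps18c, Gadd45gip1 and Nrf1, 0.18 for Gabpb1, 0.11 for Tfb2m and 0.07 for Twnk, and with the covariate 0.22 for Myc. PCR copies were counted as reads, so totals do not bound the sampling error of molecules.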
